A study of Mus musculus with 14 samples.

Results

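Mucins are the heavily glycosylated proteins that coat the stomach and other wet epithelia. The genes described here were those whose symbol was Muc1, Muc2, Muc4, Muc5ac, Muc5b, Muc6, Muc13, Muc16 or Muc20, so that 9 genes were named and 8 had an entry among the 24421 genes of the count tables; Muc16 was not analysed here. The libraries were made from messenger RNA of transplanted mouse gastric tumours, collected 2 months after transplantation, and formed 4 groups of 3 (12 in all). The groups were TMPC tumours grown orthotopically, that is in the organ of origin, and TMPC, TMP and TM tumours grown subcutaneously, that is under the skin. What TM, TMP and TMPC stand for is not explained by the labels, which also give no strain, age or sex, so the 3 terms serve as names. Because the labels do not state that the 3 libraries of a group came from different animals, p-values here cover only library-to-library spread, part or all of which may be technical.

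The mucins fall into 2 families. Secreted gel-forming mucins (Muc5ac, Muc6, Muc5b and Muc2) are stored in granules and released, where they swell into the mucus layer. In the stomach, Muc5ac is the mucin of the surface pit cells and Muc6 that of the neck and gland cells, while Muc2 is the mucin of intestinal goblet cells and Muc5b that of airways and salivary glands. Membrane-bound mucins (Muc1, Muc4, Muc13 and Muc20) stay anchored in the apical membrane, where they form a barrier and can signal through their cytoplasmic tails or through receptor kinases beside them.

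Total counts per library ranged from 16584781 to 21107310, so that 3 counts corresponded to between 0.142 and 0.181 CPM. Levels in CPM, that is counts per common library total, used TMM factors over the 12 libraries. The summed CPM of 17 general epithelial markers lay between 5552 and 9444 in orthotopic TMPC libraries, between 1398 and 4972 in subcutaneous TMPC, between 3963 and 5711 in TMP and between 351 and 6179 in TM libraries. TM replicate 2 stood apart, with 351 CPM for these markers, against 5771 and 6179 in the other TM libraries, and with 2097 CPM of the plasma cell gene Jchain, against 1.76 and 5.63. Orthotopic replicate 3 held 2982 CPM of the liver gene Alb, against 2.62 and 0.407 in the other orthotopic libraries. The gastric label was checked against pit cell markers: Gkn1, a secreted stomach protein, averaged 1605 ± 333 CPM in orthotopic TMPC tumours, against 0.0585 ± 0.101 CPM in subcutaneous TMPC, 0.0181 ± 0.0314 CPM in TMP and 0.259 ± 0.235 CPM in TM tumours (SD, n = 3 each). Gkn2 and Cldn18, and the neck and chief cell marker Pgc, were at 0 in every subcutaneous TMPC and TMP library. Other pit cell markers were not absent under the skin. The summed level of the 10 listed was 3.64 to 56.5 CPM in TMPC, 17.2 to 58.5 CPM in TMP and 95.6 to 256 CPM in TM libraries. One of them, Ctse, averaged 81.3 ± 13.8 CPM in TM tumours. The lowest TM sum, 95.6 CPM, was that of TM replicate 2, which was low in epithelial markers and had 6 of the 10 pit cell markers at 0. Whether the Ctse message came from pit cells was not tested. Markers of stratified squamous epithelium were present in the subcutaneous tumours too. Their summed level over 12 genes was 699 to 6678 CPM in TMPC, 3596 to 4325 CPM in TMP and 22.6 to 2976 CPM in TM libraries. In orthotopic TMPC libraries it was 1156 to 3300 CPM.

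Muc6, Muc2, Muc5ac and Muc5b lie side by side on chromosome 7 (mm10). Muc6 occupies 141633456 to 141655319 on the minus strand, and Muc2 (141690340 to 141754693), Muc5ac (141788972 to 141819231) and Muc5b (141839070 to 141873084) follow on the plus strand, with gaps of 35.0, 34.3 and 19.8 kb. Muc1 lies on chromosome 3 (89229057 to 89233381, plus strand). Muc4 (32735886 to 32782391, plus strand), Muc20 (32777419 to 32797435, minus strand) and Muc13 (33794037 to 33819934, plus strand) lie on chromosome 16. The annotation marks the Muc2 locus as fragmented.

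The 250 bases before the transcription start of 3 mucin genes are printed to set side by side a gene that differed strongly between the sites (Muc6), its divergent neighbour that stayed low in all groups (Muc2), and the mucin with the highest level per length (Muc1). They are RefSeq promoter windows on GRCm38.p6, read 5′ to 3′ in the direction of transcription, at chr7:141655394-141655643 (minus strand), chr7:141690090-141690339 (plus strand) and chr3:89228806-89229055 (plus strand). Capitals mark the letters GATAA, or TTATC on the other strand, the core of the motif bound by GATA factors.
Muc6: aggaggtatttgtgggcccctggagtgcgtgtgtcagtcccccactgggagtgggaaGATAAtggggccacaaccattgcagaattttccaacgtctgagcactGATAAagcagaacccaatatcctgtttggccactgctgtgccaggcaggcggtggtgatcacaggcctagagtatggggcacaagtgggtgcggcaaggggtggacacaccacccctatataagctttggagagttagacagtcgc
Muc2: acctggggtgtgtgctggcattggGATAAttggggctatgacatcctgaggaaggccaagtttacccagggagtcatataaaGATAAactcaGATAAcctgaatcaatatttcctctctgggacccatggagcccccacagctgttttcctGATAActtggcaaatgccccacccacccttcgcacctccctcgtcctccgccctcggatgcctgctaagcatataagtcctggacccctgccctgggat
Muc1: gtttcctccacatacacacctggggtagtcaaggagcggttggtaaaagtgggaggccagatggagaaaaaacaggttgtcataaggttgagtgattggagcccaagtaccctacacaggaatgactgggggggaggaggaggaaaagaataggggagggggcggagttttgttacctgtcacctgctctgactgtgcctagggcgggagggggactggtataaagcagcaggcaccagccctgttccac
The Muc6 window held GATAA 2 times, beginning 193 and 146 bases before the start, and the Muc2 window 4 times, beginning 226, 168, 158 and 99 bases before it, while the Muc1 window held none. Of all 32851 promoter windows of this length, 22.6% held the motif at least once, 4.28% at least 2 times and 0.119% at least 4 times. Another 3 motifs were searched on both strands. The letters TATAA stood in all 3 windows (in 22.8% of all windows), GGGCGG in those of Muc1 and Muc2 (32.7%) and TGTTTAC in none of the 3 (3.17%). The windows of Muc4 and Muc13 held no GATAA, nor did that of Muc20. The motifs were chosen with these letters in view, and a match is a description of the sequence.

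Between the sites, TMPC tumours grown in the organ of origin held far more mucin message than TMPC tumours grown under the skin. Muc5ac and Muc6, the 2 gastric gel-forming mucins, averaged 611 and 89.0 CPM in the orthotopic tumours and were close to the detection floor in subcutaneous TMPC tumours. Muc5b, Muc1, Muc4 and Muc20 were also higher, Muc13 was not past the threshold, and Muc2 was too low to be tested. Genes were tested with edgeR's quasi-likelihood test and Benjamini-Hochberg adjustment over 15123 genes, and an adjusted p under 0.05 counted as a call. Of the 7 mucin genes that passed the filter on low counts, 6 were called higher and 0 lower, where 14.0% of all genes tested were called higher and 13.8% lower. In 6 mucin genes every orthotopic library lay above every subcutaneous one, which held for 22.3% of all genes tested. Muc5ac, Muc6 and Muc5b had no subcutaneous TMPC library with 10 counts and entered the test through the orthotopic libraries, so that the count is a description.

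**Figure D1:**
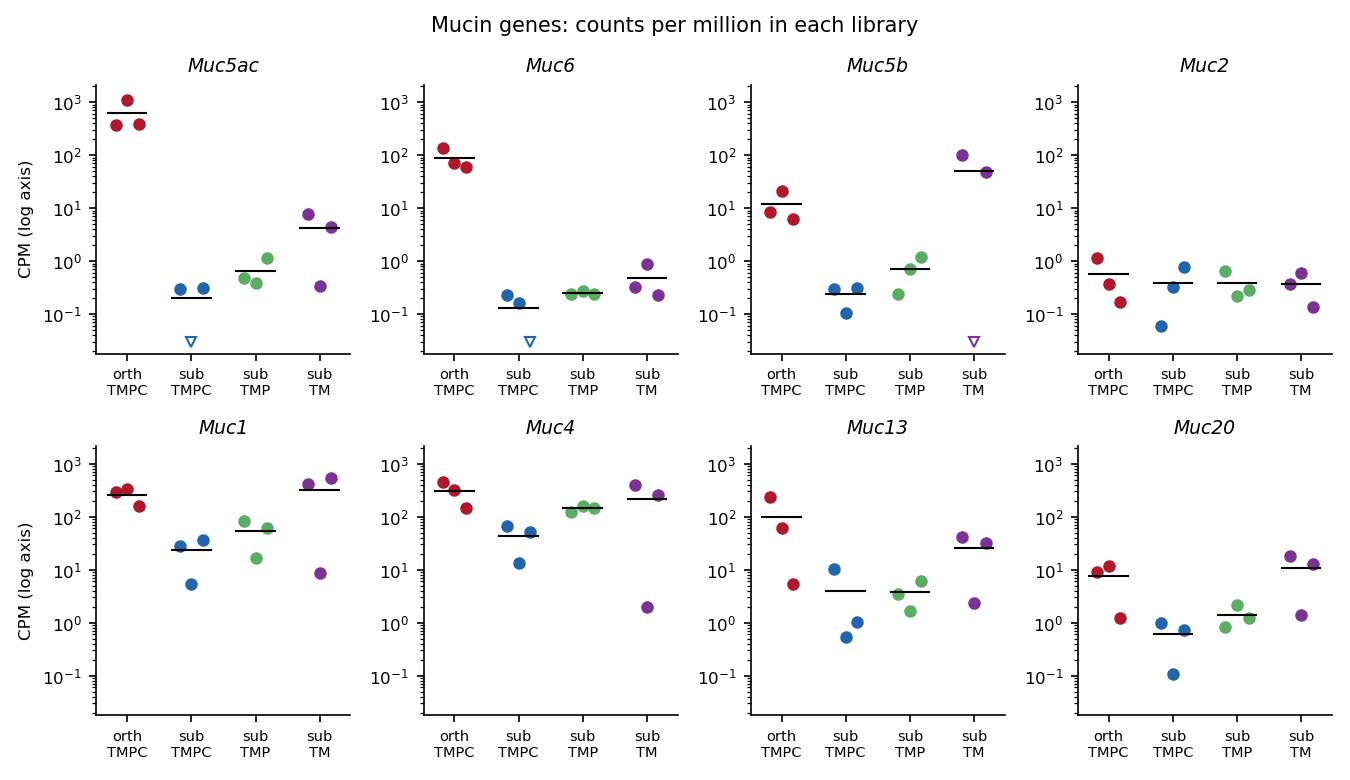
Level of each of the 8 mucin genes in each library, in CPM on a log axis, with the orthotopic TMPC, subcutaneous TMPC, TMP and TM groups from left to right. Points are libraries, lines are group means and open triangles are libraries with 0 counts, drawn at the bottom; Muc5ac and Muc6 stand at 58.9 CPM or more in the orthotopic libraries and under 10 CPM elsewhere.

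Muc5ac had 8433, 23779 and 6903 counts in the orthotopic TMPC libraries, against 5, 0 and 6 counts in the subcutaneous TMPC libraries. Scaled, these were 375, 1076 and 382 CPM, against 0.292, 0 and 0.310 CPM. No value of one site came near the other, although orthotopic replicate 2 stood well above the other orthotopic libraries. The log2 fold change was 11.59 ± 0.96 (SE, edgeR adjusted p = 0.00573).

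Muc6 had 3086, 1571 and 1063 counts in the orthotopic libraries, against 4, 3 and 0 counts in the subcutaneous TMPC libraries. These corresponded to 137, 71.1 and 58.9 CPM, against 0.234, 0.160 and 0 CPM. The sites were again far apart, with a log2 fold change of 9.42 ± 0.74 (edgeR adjusted p = 0.00526).

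Muc5b was the lower of the gel-forming mucins called, with 8.27, 20.9 and 6.31 CPM in the orthotopic libraries, against 0.292, 0.107 and 0.310 CPM in the subcutaneous TMPC libraries. All 3 orthotopic libraries were higher, and the log2 fold change was 5.66 ± 0.73 (edgeR adjusted p = 0.00909). Muc2, the intestinal gel-forming mucin, did not pass the filter on low counts. It had 1.16, 0.362 and 0.166 CPM in the orthotopic libraries, against 0.0585, 0.321 and 0.774 CPM in the subcutaneous TMPC libraries, with overlapping groups and 37 against 22 counts in all, and a difference was not detectable at this depth.

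Of the membrane-bound mucins, Muc1, which carries a short signalling tail, had 290, 331 and 162 CPM in the orthotopic libraries, against 27.6, 5.24 and 36.8 CPM in the subcutaneous TMPC libraries. The groups did not overlap, and the log2 fold change was 3.55 ± 0.71 (edgeR adjusted p = 0.0180). Muc4, a large mucin known in rat and human cells to bind the receptor ErbB2, had 448, 320 and 145 CPM, against 66.7, 13.5 and 51.0 CPM, with a log2 fold change of 2.85 ± 0.66 (edgeR adjusted p = 0.0249). Its groups did not overlap either, although the lowest orthotopic library was nearer to the subcutaneous ones than in Muc5ac.

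Muc20, which in human cells binds the receptor kinase MET, had 9.11, 11.9 and 1.22 CPM in the orthotopic libraries, against 0.994, 0.107 and 0.722 CPM in the subcutaneous TMPC libraries. Orthotopic replicate 3 stood just above the highest subcutaneous library, and the log2 fold change was 3.66 ± 1.07 (edgeR adjusted p = 0.0464). Muc4 and Muc20 overlap on opposite strands, sharing 627 exonic bases or 15.6% of the Muc20 exons, and no source used here states whether counting used strand, so Muc20 reads and Muc4 reads from that stretch cannot be told apart. Muc13, a short mucin of gastric and intestinal epithelium, had 234, 60.4 and 5.32 CPM, against 10.2, 0.535 and 1.03 CPM. Its groups overlapped, since orthotopic replicate 3 lay under subcutaneous replicate 1, and its log2 fold change of 4.73 ± 1.63 did not pass the threshold (edgeR adjusted p = 0.0701). Without orthotopic replicate 3, the library with the liver message, Muc13 was called as well (log2 fold change 5.28 ± 1.29, edgeR adjusted p = 0.0302), and 7 of 8 mucin genes tested were called higher, against 16.5% of all genes. Muc13 shares 184 exonic bases with an antisense gene, Gm15657.

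The calls of Muc5ac, Muc6 and Muc5b held under each of the 11 alternatives, with log2 fold changes of 10.90 to 12.06, 8.81 to 10.05 and 4.96 to 5.95. Those of Muc1, Muc4 and Muc20 were lost when orthotopic replicate 1 was left out (edgeR adjusted p = 0.0564, 0.0741 and 0.116) and when orthotopic replicate 2 was (0.0595, 0.0710 and 0.123). Muc4 also lost its call without subcutaneous TMPC replicate 3 (edgeR adjusted p = 0.0720), and Muc20 without subcutaneous replicate 1, 2 or 3 (0.0735, 0.114 and 0.117). The log2 fold changes of these 3 genes stayed above 2 throughout. In the authors' deposited table, the log2 fold changes of orthotopic over subcutaneous were 11.6 for Muc5ac, 9.47 for Muc6, 5.68 for Muc5b and 4.68 for Muc13, the last with an adjusted p of 0.0110.

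**Figure D2:**
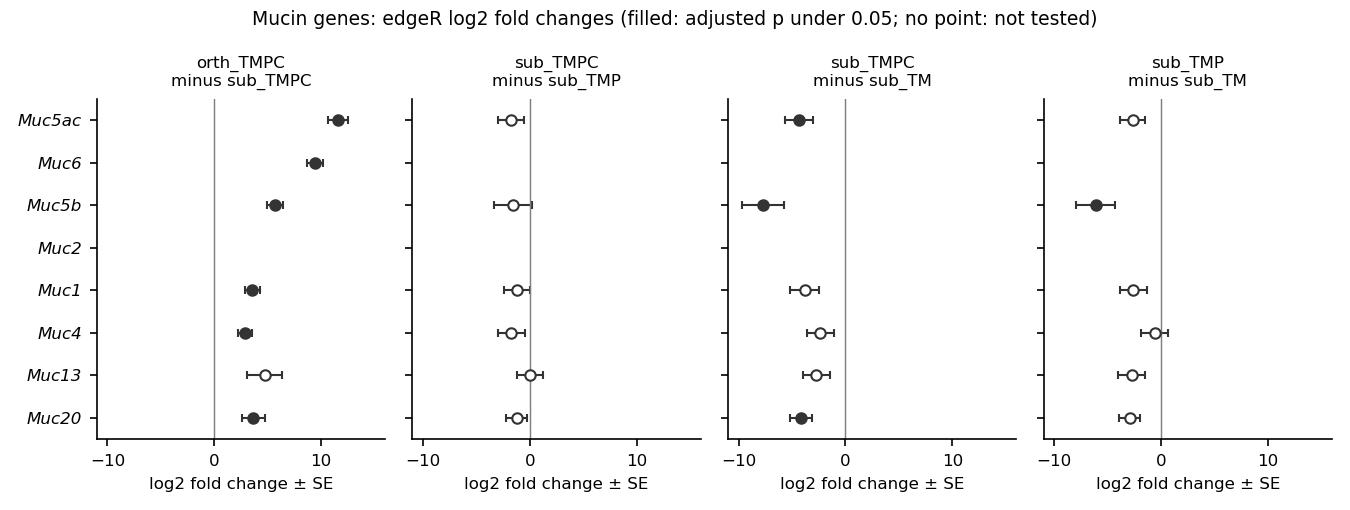
Log2 fold changes from edgeR for the 4 comparisons, one row per mucin gene. Bars are standard errors computed from the log2 fold change and the F of the test. Filled points had an adjusted p under 0.05 and genes with no point did not pass the filter on low counts. In the leftmost panel all 7 points lie to the right of 0, from 2.85 for Muc4 to 11.59 for Muc5ac.

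In bulk tissue, fewer cells of a type and less RNA per cell cannot be told apart. A ratio to general epithelial markers does not separate these for mucous cells either. The mucins were set against the summed CPM of the 17 epithelial markers in the same library. Muc5ac came to 4.33 to 11.4% of that sum in the orthotopic libraries, against 0 to 0.0209% in subcutaneous TMPC libraries, and Muc6 to 0.753 to 1.58%, against 0 to 0.0167%. Muc5b came to 0.0955 to 0.221%, against 0.00306 to 0.0209%, and Muc1 to 2.91 to 3.50%, against 0.150 to 1.97%. For these 4 mucins the sites did not overlap on this scale, for which the share over all genes was not computed. Those of Muc4 did, with 2.61 to 5.18% in the orthotopic libraries, against 0.386 to 4.77% in the subcutaneous TMPC libraries, and Muc13, Muc20 and Muc2 overlapped as well. The marker sum itself differed between the sites, and of its genes Krt19, Krt8 and Cldn7 were called higher in orthotopic tumours. With 3 libraries a side, the smallest two-sided p of an exact permutation test is 0.1, so these ratios are given without a test.

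**Figure D3:**
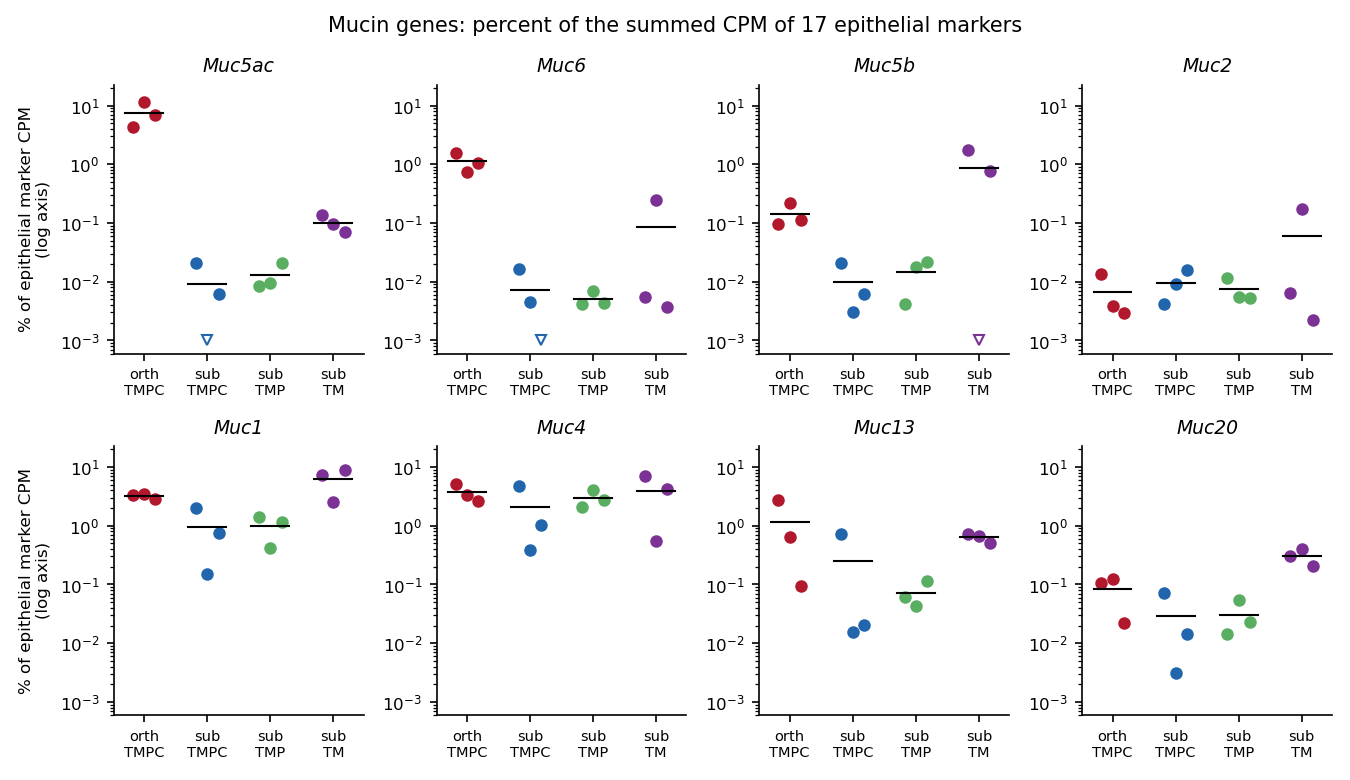
Each mucin gene as a percentage of the summed CPM of 17 epithelial markers in the same library, on a log axis, with groups, points, lines and triangles as in the plot of levels by library. Muc5ac lies between 4.33 and 11.4% in orthotopic TMPC libraries and at 0.0209% or lower in subcutaneous TMPC libraries, while Muc4 overlaps between the sites.

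The genes that make, modify and pack mucins were higher in orthotopic tumours in part. Among 14 tested genes of mucus packaging and secreted partners, 12 were called higher and 0 lower, with a median log2 fold change of 5.57, against 0.05 over all genes tested, of which 14.0% were called higher and 13.8% lower. These 2 shares are the background for the list counts between the sites that follow. Genes of a list at or near 0 under the skin passed the filter through the orthotopic libraries, so the list counts are descriptions. Tff2, a trefoil peptide secreted together with Muc6, averaged 400 ± 69.6 CPM in orthotopic tumours and 0.0195 ± 0.0338 CPM in subcutaneous TMPC tumours (SD, n = 3 each). Clca1, a secreted protein of mucus granules, averaged 313 ± 160 CPM and 0.221 ± 0.152 CPM. Creb3l1, a membrane-bound transcription factor of the secretory pathway, rose by a log2 fold change of 1.94 ± 0.24 (edgeR adjusted p = 0.00872). The list holds genes of several secretory cell types, and 7 of its 16 members are also counted among pit, neck or goblet cell markers.

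Of the Galnt enzymes, which attach the first sugar of each O-glycan, 7 of 16 tested genes were called higher (14.0% of all genes were) and 0 lower, with a median log2 fold change of 1.14. Galnt6 averaged 96.2 ± 77.5 CPM in orthotopic tumours and 9.42 ± 1.86 CPM in subcutaneous TMPC tumours (edgeR adjusted p = 0.0180), Galnt5 rose by 3.68 ± 0.65 and Galnt7 by 1.17 ± 0.26 on the log2 scale. Of the enzymes that extend the glycans, 8 of 16 were called higher and 0 lower, with a median of 1.28. A4gnt, which caps the glycans of Muc6 with a terminal N-acetylglucosamine, averaged 19.8 ± 15.6 CPM in orthotopic tumours and 0.113 ± 0.105 CPM in subcutaneous TMPC tumours (log2 fold change 7.45 ± 1.05, edgeR adjusted p = 0.01001). Fut2, the secretor fucosyltransferase, averaged 97.8 ± 24.1 CPM and 9.84 ± 4.10 CPM, and St6galnac2, a sialyltransferase, rose by 4.17 ± 0.76 on the log2 scale.

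Among 16 tested transcription factors of mucous cells, 7 were called higher, where 14.0% of all genes were, and 0 lower, with a median log2 fold change of 1.47. Spdef, a factor of mucus-secreting cells, averaged 13.0 ± 5.96 CPM in orthotopic tumours and 1.12 ± 0.253 CPM in subcutaneous TMPC tumours (log2 fold change 3.58 ± 0.50, edgeR adjusted p = 0.00982). Pdx1, a factor of the distal stomach, duodenum and pancreas, had 226 counts in the 3 orthotopic libraries and 0 in the 3 subcutaneous TMPC libraries, at least 66.4-fold higher with a floor of 3 counts over the group. Among 10 binding partners and sheddases of membrane-bound mucins 3 were called higher and 0 lower. These were Egfr, a receptor kinase, Msln, which binds the mucin MUC16 in human cells, and Lgals3, a lectin that binds mucin glycans, with log2 fold changes of 1.13 ± 0.22, 4.25 ± 1.11 and 0.94 ± 0.26.

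Markers of gastric and intestinal cell types were also higher in orthotopic tumours, in part. All 10 pit cell markers were called higher, where 14.0% of all genes were, and their summed level lay between 3658 and 7304 CPM in orthotopic libraries, against 3.64 to 56.5 CPM in subcutaneous TMPC libraries. Of 8 tested neck and chief cell markers 5 were called higher, with sums of 456 to 928 CPM, against 16.7 to 50.1 CPM. Of 11 goblet cell and enterocyte markers 6 passed the filter on low counts, and these 6 were called higher. The sums over the 11 were 348 to 620.5 CPM, against 5.35 to 5.73 CPM. Most of the orthotopic sum came from Clca1, Fcgbp and Vil1, which averaged 313, 86.7 and 49.1 CPM in orthotopic tumours. Pgc, a pepsinogen, had 5490 counts in the orthotopic libraries and 0 in the subcutaneous TMPC libraries. Whether host stomach tissue had a part in the levels was not tested.

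Of 11 tested neighbours of mucin genes 0 were called higher in orthotopic tumours and 3 lower, where 14.0 and 13.8% of all genes were, with a median log2 fold change of 0.07. On chromosome 7, Ap2a2, an adaptor subunit 0.444 kb from Muc6, averaged 90.4 ± 8.12 CPM in orthotopic tumours and 90.0 ± 15.0 CPM in subcutaneous TMPC tumours (log2 fold change 0.07 ± 0.16, edgeR adjusted p = 0.782). Tollip, a signalling adaptor 1.73 kb from Muc5b, averaged 90.4 ± 12.8 CPM and 86.7 ± 12.2 CPM (0.11 ± 0.17, edgeR adjusted p = 0.644). The 3 lower neighbours were Tfrc, the transferrin receptor upstream of Muc4, at 198 ± 46.3 CPM in orthotopic tumours and 773 ± 169 CPM in subcutaneous TMPC tumours, and Krtcap2 and Mtx1 near Muc1, whose log2 fold changes were -0.64 ± 0.14 and -0.66 ± 0.17.

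Under the skin, the tumours were compared by their TM, TMP and TMPC labels, with the 9 libraries in 1 fit of 15277 genes. Muc2 and Muc6 did not pass the filter on low counts there, which left 6 mucin genes. TMPC and TMP tumours held less mucin message than 2 of the 3 TM libraries, and TM replicate 2, which was low in epithelial markers, was low in most mucins too. The summed CPM of the mucin genes was 106, 19.9 and 91.0 in TMPC libraries and 208, 182 and 220 in TMP libraries, against 983, 16.3 and 902 in TM libraries. Values with and without TM replicate 2 are therefore given beside each other.

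In TMPC against TM tumours, Muc5b, Muc5ac and Muc20 fell and 0 mucin genes rose, so that 3 of 6 were called lower, where 17.8% of all genes were. Muc5b and Muc5ac had no TMPC library with 10 counts and entered the test through the TM and TMP libraries, so that this count too is a description. Muc5b had 0.292, 0.107 and 0.310 CPM in TMPC libraries, against 102, 0 and 48.1 CPM in TM libraries. Its groups overlapped because TM replicate 2 had no count, and the log2 fold change was -7.71 ± 2.00 (edgeR adjusted p = 0.0199). Muc20 had 0.994, 0.107 and 0.722 CPM in TMPC libraries, against 17.9, 1.40 and 12.7 CPM in TM libraries, and Muc5ac 0.292, 0 and 0.310 CPM, against 7.87, 0.334 and 4.35 CPM. For both genes every TMPC library lay under every TM library, which held in this direction for 21.6% of all genes, and the log2 fold changes were -4.16 ± 1.05 (edgeR adjusted p = 0.0180) and -4.37 ± 1.29 (0.0308). Muc1, at 27.6, 5.24 and 36.8 CPM in TMPC libraries, against 414, 8.81 and 546 CPM in TM libraries, was not past the threshold (-3.83 ± 1.33, edgeR adjusted p = 0.0535). Nor were Muc13 (-2.72 ± 1.28, 0.127) and Muc4 (-2.36 ± 1.28, 0.179), although without TMPC replicate 1 Muc13 was called lower (-5.00 ± 1.33, edgeR adjusted p = 0.0306). Without TMPC replicate 2 or without TMPC replicate 3, Muc20, Muc5b and Muc5ac lost their calls (edgeR adjusted p = 0.0536, 0.0758 and 0.0766, and 0.0571, 0.0658 and 0.0754). Muc5ac also lost it without TM replicate 1 (0.0839), TM replicate 3 (0.0560) or TMPC replicate 1 (0.0707), and Muc5b without TMPC replicate 1 (0.0583). By contrast, without TM replicate 2, 6 of 7 mucin genes tested were called lower, against 20.1% of all genes, with log2 fold changes between -8.28 for Muc5b and -2.92 for Muc4; the other gene tested was Muc2 (0.62 ± 1.03).

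In TMP against TM tumours, Muc5b alone was called, lower in 1 of 6 mucin genes, where 13.4% of all genes were. It had 0.238, 0.707 and 1.18 CPM in TMP libraries, against 102, 0 and 48.1 CPM in TM libraries (log2 fold change -6.11 ± 1.82, edgeR adjusted p = 0.0398). The TMP libraries lay under 2 TM libraries and above the third, and the call was lost when any 1 TMP library, TM replicate 1 or TM replicate 3 was left out (edgeR adjusted p from 0.0637 to 0.133). Muc20, at 0.832, 2.12 and 1.22 CPM in TMP libraries, gave -2.93 ± 0.98 (edgeR adjusted p = 0.0566). Muc1, at 81.2, 16.5 and 61.8 CPM, gave -2.61 ± 1.26 (0.151), and Muc4, at 121, 160 and 148 CPM, against 398, 1.94 and 259 CPM in TM libraries, gave -0.62 ± 1.22 (0.729). Without TM replicate 2, Muc5b, Muc20, Muc1 and Muc5ac were called lower, that is 4 of 7 mucin genes tested, against 15.1% of all genes, at edgeR adjusted p = 0.00101, 0.00962, 0.0202 and 0.0260.

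The mucins of the subcutaneous groups were also set against the epithelial marker sum. Muc1 came to 0.150 to 1.97% of that sum in TMPC libraries and 0.416 to 1.42% in TMP libraries, against 2.51 to 8.84% in TM libraries. Muc20 came to 0.00306 to 0.0711% in TMPC and 0.0146 to 0.0535% in TMP libraries, against 0.205 to 0.399% in TM libraries. Muc5ac came to 0 to 0.0209% and 0.00833 to 0.0212%, against 0.0704 to 0.136% in TM libraries. For these 3 genes all TMPC and all TMP libraries lay under all TM libraries on this scale, TM replicate 2 included. The share of all genes that did so on this scale was not computed. In TM replicate 2 the marker sum was only 351 CPM, so that even a few counts gave a high percentage. Muc5ac had 5 counts there, and Muc6 and Muc2, with few counts too, came to 0.247 and 0.171%. Muc13 did so in TMP libraries, at 0.0425 to 0.115%, against 0.507 to 0.726% in TM libraries, while TMPC replicate 1 reached 0.728%. Muc5b, Muc4, Muc6 and Muc2 overlapped between the groups.

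Between TMPC and TMP tumours, 0 of 6 mucin genes were called, as were 0% of the 15277 genes tested by edgeR, although 465 genes had an unadjusted p under 0.05 and DESeq2 called 17. For Muc4 and Muc5ac every TMPC library lay under every TMP library, which held for 5.67% of all genes tested. Muc6, which was not tested, had 4, 3 and 0 counts in TMPC libraries, against 4, 5 and 5 counts in TMP libraries. Its CPM values just failed to overlap, with 0.234 as the highest in TMPC and 0.235 as the lowest in TMP libraries. Muc4 had 66.7, 13.5 and 51.0 CPM in TMPC libraries, against 121, 160 and 148 CPM in TMP libraries, a log2 fold change of -1.74 ± 1.25. Muc5ac and Muc6 were near the detection floor in both groups. Muc1 gave -1.22 ± 1.21, Muc5b -1.60 ± 1.78, Muc20 -1.22 ± 0.97 and Muc13 0.02 ± 1.21, each with an edgeR adjusted p of 1.00.

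The partner lists were also compared under the skin. In TMPC against TM tumours, 4 of 10 genes of mucus packaging were called lower, where 17.8% of all genes were, and 0 higher (median log2 fold change -1.80, against -0.07 over all genes). Fcgbp, a large protein of the mucus gel, averaged 1.71 ± 1.16 CPM in TMPC tumours and 63.9 ± 59.5 CPM in TM tumours (-5.25 ± 0.85, edgeR adjusted p = 0.00352), and Creb3l1 fell by 1.89 ± 0.37 on the log2 scale. Of 15 Galnt genes 5 were called lower, against the same background, and 1 higher. Galnt11, Galnt15 and Galnt6 fell, by 1.06 ± 0.17, 3.52 ± 0.68 and 1.34 ± 0.27 on the log2 scale. Spdef averaged 1.12 ± 0.253 CPM in TMPC tumours and 10.9 ± 9.19 CPM in TM tumours, and Msln 1.89 ± 1.38 CPM and 540 ± 481 CPM, with 0 in TM replicate 2. In TMP against TM tumours, 4 of 10 packaging genes and 3 of 15 Galnt genes were called lower and none of either list higher. Over all genes 13.4% were called lower, so with all TM libraries the Galnt count was near the background. Of the glycan-extending enzymes St6galnac2 fell by 2.65 ± 0.40 while B3gnt6, which starts core 3 glycans, rose by 4.35 ± 1.06. Without TM replicate 2, the packaging genes called lower were 9 of 13 in TMPC against TM tumours (20.1% of all genes) and 8 of 13 in TMP against TM tumours (15.1% of all genes). In the same order and against the same shares, Galnt genes called lower were 7 of 16, with 1 higher, and 6 of 16, with 0 higher. Transcription factors called lower were 8 of 15 each time, and binding partners and sheddases 7 of 12 and 6 of 12. Glycan-extending enzymes called lower were 3 of 15, and 2 of 15 with 1 higher.

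The summed makeup of the mucin message was compared per kilobase of annotated exon, since the genes differ in length. Muc1 was the leading mucin per kilobase in 11 of the 12 libraries, with 42.5, 47.0 and 54.9% of the summed level in orthotopic TMPC libraries. Muc4 led in TMP replicate 2, with 62.3%, against 32.1% for Muc1. Muc5ac made up 11.96, 33.3 and 28.3% in the orthotopic libraries and at most 0.592% in any subcutaneous library. The order below Muc1 therefore differed by site: Muc13 was second in orthotopic replicate 1 and Muc5ac in replicates 2 and 3, whereas Muc4 or Muc1 was second in 8 of the 9 subcutaneous libraries and Muc13 in TM replicate 2. In CPM per kilobase, Muc1 averaged 111 ± 37.7, Muc5ac 56.8 ± 37.4, Muc13 32.9 ± 39.3, Muc4 25.9 ± 13.0 and Muc6 9.51 ± 4.50 in orthotopic tumours (SD, n = 3), and the neighbours Muc5ac, Muc13 and Muc4 in that order did not differ beyond their spread. Muc20, Muc5b and Muc2 followed, with 1.84 ± 1.38, 0.789 ± 0.528 and 0.0788 ± 0.0735. These levels depend on the annotated exon length.

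**Figure D4:**
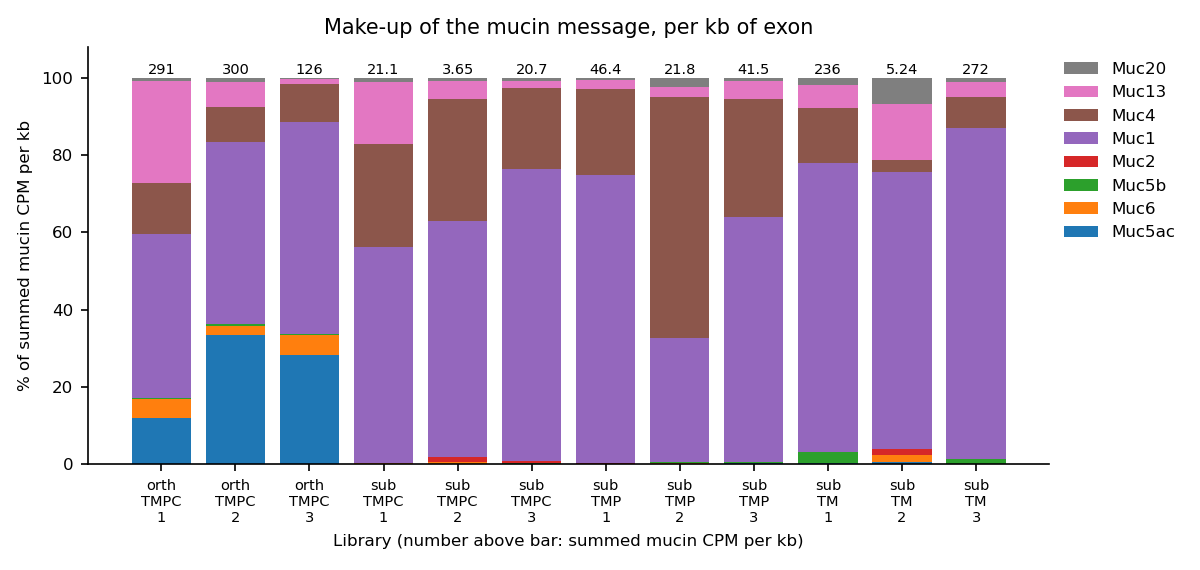
Share of each mucin gene in the summed level per kilobase of exon, one bar per library, with groups from left to right as orthotopic TMPC, subcutaneous TMPC, TMP and TM. The number above a bar is the summed level in CPM per kilobase; Muc5ac takes 11.96 to 33.3% of the orthotopic bars and at most 0.592% of the others.

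Orthotopic TMPC and subcutaneous TM tumours differ in both label and site, so their levels are set side by side without a test. Muc5ac, at 611 ± 403 CPM in orthotopic TMPC tumours and 4.19 ± 3.77 CPM in TM tumours, and Muc6, at 89.0 ± 42.1 CPM and 0.472 ± 0.346 CPM, were higher in every orthotopic library than in every TM library. The share of all genes for which this held was not computed. Muc1 averaged 261 ± 88.4 CPM and 323 ± 280 CPM, Muc4 304 ± 152 CPM and 220 ± 201 CPM, and Muc20 7.43 ± 5.56 CPM and 10.7 ± 8.45 CPM, all with overlapping groups. Muc5b averaged 11.8 ± 7.89 CPM in orthotopic TMPC and 50.1 ± 51.2 CPM in TM tumours, again overlapping.

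The likeness of the mucins across the 12 libraries was described by Pearson's r of log2(CPM + 1). Muc5ac and Muc6 had an r of 0.956, and Muc5b and Muc20 of 0.920, but Muc5b and Muc6, which were both higher in orthotopic TMPC than in subcutaneous TMPC tumours, had an r of 0.341. Muc1 and Muc13 had an r of 0.669 and 0.702 to Muc5ac and of 0.823 and 0.858 to Muc20, while Muc2 had an r between -0.12 and 0.29 with the other mucins. The genes nearest to Muc6 among those with a mean of at least 5 CPM were Pgc (0.995), Gkn1 (0.992) and the gasdermin Gsdma2 (0.992), and those nearest to Muc5ac were Cyp2c65 (0.990), Dpcr1 (0.988), which encodes a membrane mucin-like protein, and Rep15 (0.987). Those nearest to Muc1 were Lrrc26 (0.994), a potassium channel subunit of secretory epithelia, Pllp (0.982) and the zinc transporter Slc39a4 (0.975). For Muc5b they were Sftpd (0.980), Car8 (0.975) and Onecut2 (0.973), for Muc20 Dnah7b (0.984), Galnt7 (0.964) and Slc23a3 (0.958), for Muc4 Wfdc2 (0.965), Rin1 (0.963) and Trim16 (0.961), and for Muc13 Sec14l1 (0.977), Ccdc162 (0.966) and Trim12a (0.965). The libraries fall into 4 groups and share tissue composition and depth within them, so these values describe the 12 libraries only.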

How the data were processed

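Bulk polyA RNA from about 1 cm3 of tumour was sequenced 2 months after transplantation, per the labels; 2 single-cell samples were not analysed here. STAR 2.6.0, DESeq2, Seurat 3 and mm10 are named in the submitters' processing notes. The read counter, its annotation and its strand setting are named in none of the sources used here. Whole-number counts per gene come from 2 tables that the authors deposited. Per the file headers, these also hold a signal (the authors' normalized counts, divided by size factors), together with log2 fold changes and p-values from the authors' own comparisons. Symbols of the subcutaneous table were shifted against its counts for 12131 entries, the first being entry 12291, and were replaced, by position, with those of the other table. Within 0.01 reads, counts then matched the deposited signal for 24419 genes, against 14200 before.

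The main test was edgeR 4.0.16 under R 4.3.3 (glmQLFit, glmQLFTest, TMM, filterByExpr) with Benjamini-Hochberg adjustment over all genes tested and a threshold of 0.05. One fit held the 9 subcutaneous libraries (6 residual degrees of freedom), another the 6 TMPC libraries (4 residual). A standard error is the log2 fold change over the square root of F, without sign. This edgeR fit was tested on simulated counts with known fold changes, for TMPC against TM tumours and for the sites. The other steps were not. Alternatives were DESeq2 1.42.0, its size factors, no filter, other library sets, the replicate number as a block and leaving out each replicate. Lengths and positions come from GENCODE M21 (mm10). No 2 replicates were duplicates (chi-square per degree of freedom 28.4 or more). Same-numbered libraries did not deviate together in every pair (r from -0.216 to 0.270). In TMP against TM tumours their r was 0.224, 0.270 and 0.0885. With 3 libraries a group this check cannot exclude a pairing, and the main test used none.

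The mucin genes and lists were chosen with earlier results of these data known, and a list is described by its counts and median. All mucin genes are named, with up to 3 genes of smallest adjusted p past the threshold per list and the 3 genes nearest to each mucin. Ap2a2, Tollip, Muc19, Cd164, Emcn and the epithelial, liver and plasma cell markers were named after their values were seen. Floors of 3 counts cover counting error only; without molecular identifiers, reads need not be separate molecules. One gene that this rule names is not reported here.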

Additional observations from a re-analysis of the deposited data

How the results depend on the processing

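The mucin counts changed with the processing as follows. Between the sites, 6 mucin genes were called higher, and leaving out 1 library gave 3 to 7. In TMPC against TM tumours 3 were called lower, 5 with DESeq2, 0 with only the 2 groups fitted (where Muc5ac and Muc5b did not pass the filter) and 0 to 6 when leaving out 1 library. In TMP against TM tumours 1 was called lower, 4 with DESeq2, 0 with only the 2 groups, 0 with the replicate number as a block and 0 to 4 when leaving out 1 library. Over all genes, leaving out 1 library gave 387 (without orthotopic replicate 2) to 4789 calls between the sites (4204 with all), 1550 (without TMP replicate 1) to 4885 in TMP against TM (4239) and 3414 (without TMPC replicate 2) to 6390 in TMPC against TM (5469). Only the 2 groups gave 3536 calls in TMPC against TM; DESeq2 gave 6372 between the sites and 17 in TMPC against TMP (0 with edgeR). The cause of these changes was not tested. Fits of only the 2 groups or without 1 library hold fewer libraries. The calls that rose were those without TM replicate 2 (4885 in TMP against TM and 6390 in TMPC against TM) and without orthotopic replicate 3 (4789 between the sites). DESeq2 was given the same libraries as the main fit. The replicate block gave 1777 calls between the sites. There Muc1, Muc4 and Muc20 lost their call under the block and Muc13 gained one; Muc1 and Muc4 also lost theirs with all 12 libraries fitted (edgeR adjusted p = 0.0510 and 0.106), and Muc20 with no filter (0.0567). In TMPC against TM tumours the block left 3 mucin genes called lower, with Muc5b losing its call (0.0557) and Muc1 gaining one (0.0272). Of the single genes, Muc4 in TMP against TM tumours turned from -0.62 to 0.40 under the block and to 0.12 without TM replicate 1 (-1.19 to 0.12 when leaving out 1 library). Muc13 in TMPC against TMP tumours turned from 0.02 to -0.85 under the block, -0.0028 and -0.30 without TMP replicate 1 or 2, and -2.26 without TMPC replicate 1 (-2.26 to 0.56 when leaving out 1 library). None of these passed the threshold. Of 295 fold changes of single mucin genes under alternatives 236 kept their direction and side of the threshold, 35 lost the call and 18 gained one, and all 64 group levels moved by less than 1 SD under other scalings. Depth limits Muc2 everywhere and Muc6 under the skin, where few libraries reached 10 counts.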

Other observations

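Other mucin and mucin-like genes were described by a separate list, of which 8 had an entry. Between the sites 1 of the 4 tested was called, Dpcr1, at 237 ± 69.6 CPM in orthotopic TMPC tumours and 0.292 ± 0.206 CPM in subcutaneous TMPC tumours (SD, n = 3 each, log2 fold change 9.71 ± 0.61, edgeR adjusted p = 0.00347). Cd164, a widely expressed sialomucin, averaged 443 ± 74.0 CPM and 352 ± 26.0 CPM, and Emcn, the sialomucin of vessel walls, 25.1 ± 12.5 CPM and 16.5 ± 1.49 CPM. Muc19, a gel-forming mucin of salivary glands in mice, averaged 16.9 ± 13.8 CPM in orthotopic TMPC, 17.8 ± 22.6 CPM in subcutaneous TMPC, 57.7 ± 88.6 CPM in TMP and 1.41 ± 1.38 CPM in TM tumours, with 160 CPM in 1 TMP library and 1.84 CPM in the lowest of that group.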
